A study of Drosophila melanogaster with 27 samples.

Results

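Proteasome subunit genes of Drosophila melanogaster were taken as the genes of the count table whose FlyBase symbol begins with Prosalpha or Prosbeta, or with Rpn or Rpt followed by a digit. Of 15348 genes in the table, 47 met this rule. They comprised 32 standard subunits and 15 paralogs, whose symbols carry an added T or R. Prosalpha4T1, which also meets the rule by its symbol, has no row under its current identifier in the count table and was not analysed here. The rule uses the symbol alone.

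The proteasome is the protease that degrades ubiquitin-tagged proteins in the cytosol and nucleus. Its barrel-shaped core particle has outer rings of alpha subunits, which gate the entry, and inner rings of beta subunits, among which Prosbeta1, Prosbeta2 and Prosbeta5 carry the proteolytic sites. The regulatory particle that caps the core has a base, in which the Rpt ATPases unfold substrates and Rpn1, Rpn2, Rpn10 and Rpn13 hold the complex together or bind ubiquitin, and a lid, in which Rpn11 removes ubiquitin chains. In Drosophila, transcription of the subunits is known to depend on cnc, a homolog of the mammalian Nrf factors, when the proteasome is impaired, and several of the T and R paralogs are known from the testis.

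RNA was sequenced from 27 libraries of imaginal discs, the larval epithelia that give rise to adult eyes and antennae, legs and wings. Every genotype carried hh-Gal4, which is active in the posterior compartment of a disc, and UAS-GFP, so that whole-disc libraries also hold cells in which the transgenes are not driven. Each library pooled discs of 35 to 50 wandering larvae raised at 25 °C, and replicates were independent dissections. Control discs carried a UAS hairpin against luciferase and were dissected on day 5, and 2 libraries were made from each kind of disc (eye-antennal, leg, wing). Tumour discs carried the luciferase hairpin together with UAS-scrib-RNAi, against a polarity gene, and UAS-Ras[v12], an activated Ras. They also had 2 libraries of each kind of disc, with replicate 1 on day 9 and replicate 2 on day 11. In 5 further genotypes a hairpin of the TRiP collection replaced the luciferase hairpin of the tumour. The CG6272 hairpin (day 8) had 2 eye-antennal and 2 leg libraries, the Stat92E hairpin (day 8) had 1 eye-antennal and 2 leg libraries, and the kay hairpin (day 10) had 1 eye-antennal library. The libraries titled tai (day 10) comprised 2 eye-antennal and 1 leg library. The libraries titled sd (days 7 and 8) comprised 2 eye-antennal and 2 leg libraries, of which the eye-antennal ones name the kay hairpin in their genotype label.

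Between 11.7 M and 16 M reads were assigned to genes in a library. In CPM (counts per M reads assigned to genes, after scaling between libraries), scrib averaged 368 in control and 245 in tumour libraries, and Ras85D 287 and 894. Irbp18, the current name of CG6272, averaged 70.6 CPM in tumour and 10.8 CPM under its hairpin, and Stat92E 227 and 173 CPM. Levels of sd, tai and kay did not differ from tumour past the threshold in the libraries titled after them. Summed markers of each disc were highest in that disc in control and in tumour libraries. With tumour, summed fat body markers had a range of 456 to 8480 CPM in control discs and of 37.5 to 287 CPM in tumours, with 6 of 7 lower. For salivary glue genes these ranges were 2.00 to 1784 and 0.794 to 23.3 CPM (6 of 6 lower, up to 4 of the 6 genes at 0 in a tumour library), and for hemocyte markers 89.8 to 200.2 and 204 to 414 CPM (3 of 7 higher, none at 0 in any of these libraries). Alignment lines assigned to several places made up 15.8% to 22.9% of lines in control and 54.4% to 76.1% in tumour libraries. Tumour and control also differed in age. The part of these differences in the results below was not tested, and age and genotype cannot be told apart.

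Of the 47 members, 35 passed the filter of 1 CPM in at least 2 libraries and entered the test with 9814 genes in all. They were 31 standard subunits and the paralogs Prosalpha1R, Rpt3R, Rpt4R and Rpt6R. The 31 standard subunits had at least 1278 reads each in every library, and lay on all major chromosome arms in the Ensembl annotation of assembly BDGP6. Among the 12 members that did not pass, 11 had at most 6 reads over all libraries together. These were Prosalpha1, Prosalpha3T, Prosalpha4T2, Prosalpha6T, Prosbeta2R1, Prosbeta4R1, Prosbeta4R2, Prosbeta5R1, Prosbeta5R2, Rpn12R and Rpn13R. The remaining member, Prosbeta2R2, had 81 reads in 23 libraries, with at most 9 in a library. Prosalpha1 was the sole standard subunit not to pass, with 1 read in all, while Prosalpha1R had 161 reads in 9 libraries. Both have a coding length of 732 bases and lie on chromosome arm 2R in that annotation, so how reads were divided between them is uncertain and neither level was interpreted.

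In control discs, the genes of the core particle stood above those of the regulatory particle when levels were set per length. In CPM per kilobase of exon, the 13 core genes ranged from 198 (Prosbeta7) to 262 (Prosalpha2), with a median of 229. The 18 regulatory genes ranged from 122 (Rpn13) to 191 (Rpn5), with a median of 156. All 13 core genes therefore ranked above all 18 regulatory genes. Across the 9374 tested genes with a length in the annotation the median was 13 CPM per kilobase, and 94.0% of them lay below Rpn13. In tumour discs the core genes spanned 151 to 211 and the regulatory genes 89.3 to 140 CPM per kilobase, again without overlap. Exon lengths were 815 to 1215 bases for core and 995 to 3412 bases for regulatory genes.

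The comparison of tumour with control asks what the loss of scrib together with activated Ras is accompanied by in the disc. All 31 standard subunits that passed the filter fell in tumour discs, on the mean over the 3 discs, and none rose (edgeR's quasi-likelihood test, Benjamini-Hochberg adjusted p from 1.74e-07 to 0.0321). Discs of the same genotype and replicate number deviated together, so the dissection was also fitted as a random block in limma-voom. There 28 members fell, against 1718 of 9814 genes tested, and Prosbeta5 and Rpn12 were among those that no longer passed. Calls over all genes were 3605 in that fit, 4882 in limma-voom without a block and 5180 in edgeR's test. In edgeR's test, 24.5% of all genes tested fell and 28.3% rose. The median log2 change of the 31 was -0.44, against 0.03 for all genes tested, and single genes ranged from -0.70 (Rpn5) to -0.30 (Prosalpha6). Among the 1120 genes whose control level lay within the range of these subunits, 156 to 539 CPM, 53.7% fell and 17.2% rose, with a median of -0.22, and 24.7% had a change below the median of the subunits. Genes of this level thus fell more often than other genes, and the subunits are to be read against that share as well. In bulk discs, fewer cells of a type and less RNA per cell cannot be told apart.

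Summed over the 31 standard subunits, the 6 control libraries held 7547 and 7635 CPM in eye-antennal discs, 7669 and 7947 in leg discs, and 8502 and 8020 in wing discs. The tumour libraries held 5259 and 5688 CPM in eye-antennal, 5668 and 6743 in leg, and 5563 and 5764 in wing discs. Every tumour library lay below every control library, and the mean over libraries was 26.7% lower. The ratio of tumour to control means was 0.721 in eye-antennal, 0.795 in leg and 0.686 in wing discs. Replicate 2 of tumour leg discs stood above the other 5 tumour libraries, and without it the leg ratio was 0.726 and the ratio over all discs 0.709 in place of 0.733.

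**Figure D1:**
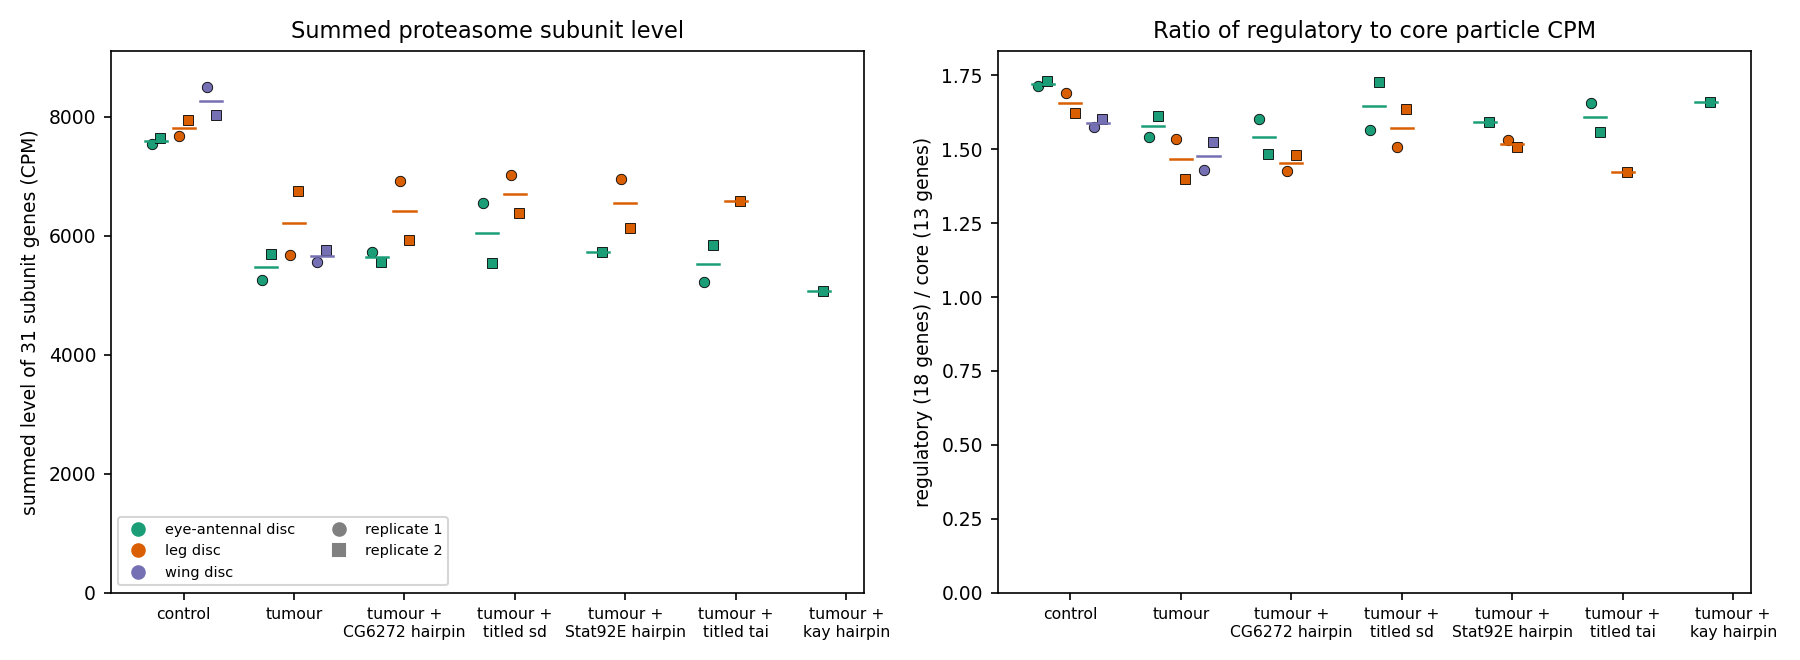
Summed level of the 31 standard proteasome subunits in each of the 27 libraries, in CPM, by genotype and disc; each point is a library. The 6 control libraries lie between 7547 and 8502 CPM, and all tumour and hairpin libraries lie below them, from 5071 to 7019 CPM.

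The classes of the complex fell by unequal amounts. The median log2 change was -0.32 for the 6 alpha-ring genes, -0.39 for the 7 beta-ring genes, -0.45 for the 6 base ATPases, -0.53 for the 4 other base genes and -0.48 for the 8 lid genes. Summed levels fell by 22.3% for the core and by 29.4% for the regulatory particle. Tumour and control libraries did not overlap for 20 of the 31 genes, against 12% of all genes tested, and these 20 comprised 17 of 18 regulatory but 3 of 13 core genes, none of them an alpha-ring gene. Replicate 2 of tumour leg discs was the highest tumour library for 30 of the 31 genes. Without it, all 31 genes had every tumour library below every control library, against 12.9% of genes tested. The ratio of regulatory to core summed CPM was 1.57 to 1.73 in control and 1.40 to 1.61 in tumour libraries, with an overlap between the groups.

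**Figure D2:**
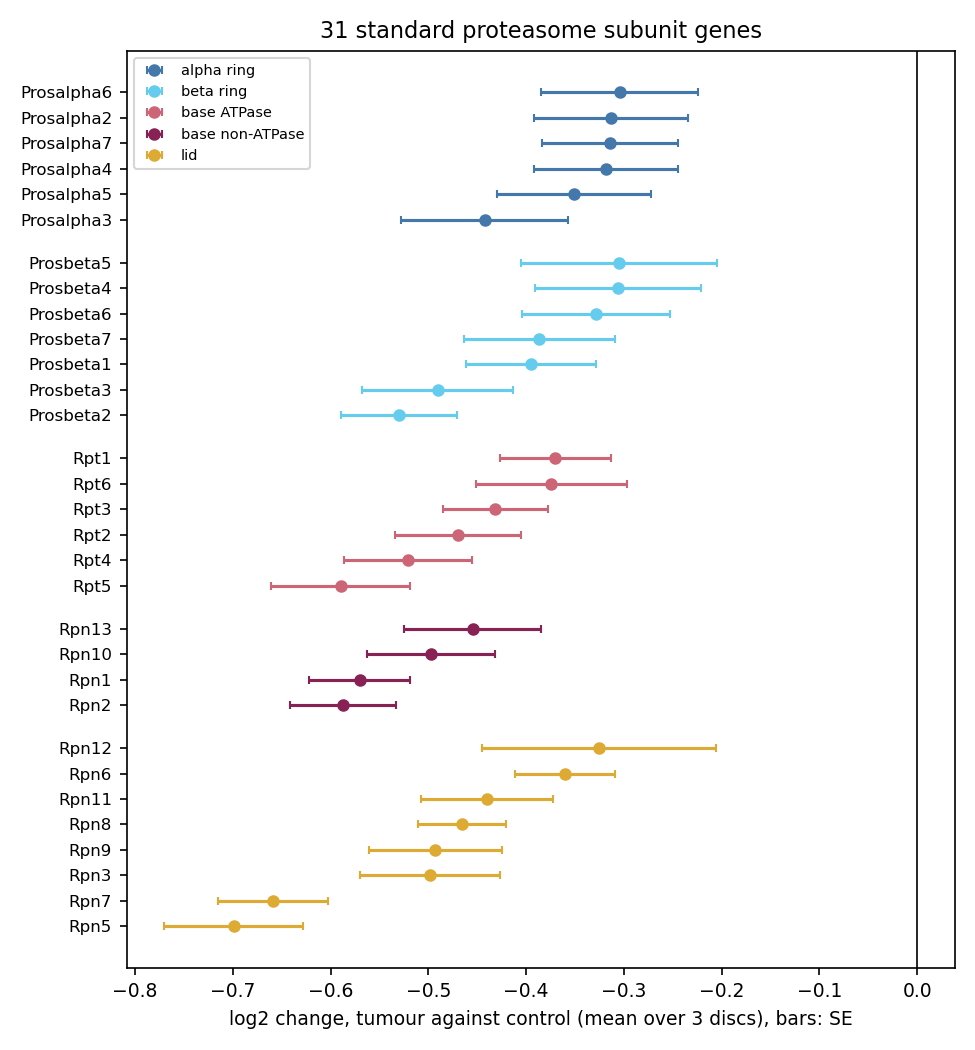
Log2 change of tumour against control, mean over eye-antennal, leg and wing discs, for each of the 31 standard subunits, grouped by their place in the complex; bars are the SE. All points lie below 0, from -0.70 for Rpn5 to -0.30 for Prosalpha6.

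Among the catalytic beta subunits, Prosbeta2, which has trypsin-like activity, changed most. Its level was 228, 232 and 264 CPM (lowest, median and highest of 6 libraries) in control and 153, 163 and 188 CPM in tumour discs, without overlap. It fell by 0.53 on the log2 scale (SE 0.0595, adjusted p = 2.79e-06). Prosbeta1, with caspase-like activity, had 183, 199 and 217 CPM in control and 138, 150 and 182 CPM in tumour discs, so that the highest tumour library, replicate 2 of leg discs, came just under the lowest control library. Its log2 change was -0.40 (SE 0.0661, adjusted p = 0.000133). Prosbeta5, with chymotrypsin-like activity, had 229.8, 249 and 284 CPM in control and 182, 195 and 249 CPM in tumour discs. Its groups overlapped through that same tumour leg library, and its log2 change was -0.31 (SE 0.10, adjusted p = 0.0186). The call for Prosbeta5 was lost without replicate 1 of tumour leg discs (adjusted p = 0.0619), without replicate 2 of tumour wing discs (adjusted p = 0.0506) and with the dissection as a random block (adjusted p = 0.130). Prosbeta6, a beta subunit without a catalytic site, had 185, 198 and 225 CPM in control and 132, 156 and 205 CPM in tumour discs, with an overlap, and a log2 change of -0.33 (SE 0.0757, adjusted p = 0.0019). In the alpha ring the largest change was that of Prosalpha3, at 223, 246 and 273 CPM in control and 163, 176 and 224 CPM in tumour discs. Its groups overlapped by the tumour leg library of replicate 2 alone, and it fell by 0.44 on the log2 scale (SE 0.0854, adjusted p = 0.000468).

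In the base, the ATPase Rpt5 had 275, 283 and 312 CPM in control and 170, 190 and 218 CPM in tumour discs (lowest, median and highest of 6). The groups lay apart, and the log2 change was -0.59 (SE 0.0709, adjusted p = 5.56e-06). Rpn2, a large scaffold protein of the base, had 516, 534 and 569 CPM in control and 323, 356 and 389 CPM in tumour discs. It fell in every disc, with a log2 change of -0.59 (SE 0.0542, adjusted p = 3.7e-07) on the mean over discs. Its partner Rpn1 fell by 0.57 and the ubiquitin receptors Rpn10 and Rpn13 by 0.50 and 0.45 on the log2 scale.

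The largest fall of any standard subunit was that of Rpn5, a structural subunit of the lid. It had 344, 364 and 394 CPM in control and 201, 219 and 266 CPM in tumour discs, a log2 change of -0.70 (SE 0.0710, adjusted p = 1.02e-06) with no overlap. Rpn7, also structural, followed at 208, 216 and 230 CPM in control and 122, 136 and 154 CPM in tumour discs, with a log2 change of -0.66 (SE 0.0565, adjusted p = 1.74e-07). The groups of Rpn9, another structural lid subunit, did not overlap either, at 235, 246 and 289 CPM against 163, 178 and 205 CPM, and it fell by 0.49 on the log2 scale (SE 0.0684, adjusted p = 2.35e-05). Rpn11, the deubiquitinase of the lid, had a log2 change of -0.44 (SE 0.0675, adjusted p = 5.99e-05). Rpn12 stood apart from the rest of the lid in that its groups overlapped, at 149, 158 and 164 CPM in control and 113, 118 and 156 CPM in tumour discs. Its log2 change was -0.33 (SE 0.119, adjusted p = 0.0321), and the call did not hold with libraries scaled by their totals (adjusted p = 0.0576), with the dissection as a random block (adjusted p = 0.152), or without 1 of several single libraries (adjusted p up to 0.10). For Prosalpha2, Prosbeta1 to Prosbeta5, Rpn7, Rpn9, Rpt2, Rpt4, Rpt5, Rpt6 and Rpt3R, a gene on the opposite strand overlaps in the annotation, over 1 base (Rpt5) to 264 bases (Rpn9), or 0.061% to 15.7% of the exon length. The strand setting of the counting is not given in the sources used here, so reads within these stretches may belong to either gene.

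Longer genes had lower log2 changes in these data, which touches the difference between core and regulatory subunits. Across 9374 genes Spearman's rho of exon length with the log2 change was -0.18, and among the 31 subunits it was -0.59. Both are descriptions over genes that share the same libraries, and genes are not independent replicates. Among genes of up to 1000 bases the median change was 0.23 for all genes and -0.33 for the 9 subunits of that length. Among genes between 1000 and 2000 bases it was 0.12 for all genes and -0.46 for 20 subunits, and over 3000 bases -0.09 for all genes and -0.58 for 2 subunits. The subunits lay below the median of genes of their own length in each of these classes. The part of length in the difference between core and regulatory genes was not tested.

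Within single discs all 31 standard subunits had a negative log2 change, and the calls differed in number. In eye-antennal discs 26 of them fell and none rose, against 12.1% of all genes that fell and 17.1% that rose, with a median of -0.47. Prosalpha2, Prosalpha6, Prosbeta4, Prosbeta5 and Rpn12 did not pass the threshold there. In wing discs 27 fell and none rose, against 14.1% and 16.3% of all genes, with a median of -0.53, and Prosalpha6, Prosbeta4, Prosbeta5 and Rpn12 did not pass. In leg discs 18 fell and none rose, against 18.6% and 19.7% of all genes, with a median of -0.31. These 18 held 16 of 18 regulatory but 2 of 13 core genes, namely Prosbeta2 and Prosbeta3, and none of the 6 alpha-ring genes. The number of members called in single discs depended on single libraries. It was 27 in eye-antennal discs with Rpt6R, which fell, and 20 in leg discs with Rpt3R and Rpt6R, which rose. Both numbers were lower when some single libraries of that disc were left out, as were calls over all genes. With each library left out in turn, the median log2 change of the standard subunits lay between -0.57 and -0.41 in eye-antennal discs. In leg discs it lay between -0.48 and -0.20.

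A difference of the tumour effect among the 3 discs was tested directly and was not called for any standard subunit in edgeR's test (lowest adjusted p = 0.471, and 0 of 31 at an unadjusted p under 0.05), against 3.28% of all genes called. Levels in control discs likewise gave no call among discs for the standard subunits (lowest adjusted p = 0.462, and 0 of 31 at an unadjusted p under 0.05), against 11.8% of all genes. These p-values do not show that the discs were alike. As a description, the leg level exceeded the eye-antennal level for 24 of 31 genes in control discs, with a median log2 ratio of 0.05, and for all 31 in tumour discs, with a median of 0.18. All 31 were higher in leg discs also under the CG6272 and Stat92E hairpins and in the libraries titled sd and tai, with medians of 0.19, 0.21, 0.15 and 0.25. In tumour discs, replicate 2 (day 11) exceeded replicate 1 (day 9) for 30 of 31 genes in eye-antennal, 31 in leg and 21 in wing discs, with median log2 differences of 0.11, 0.26 and 0.04. Day and dissection cannot be told apart in these pairs.

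**Figure D3:**
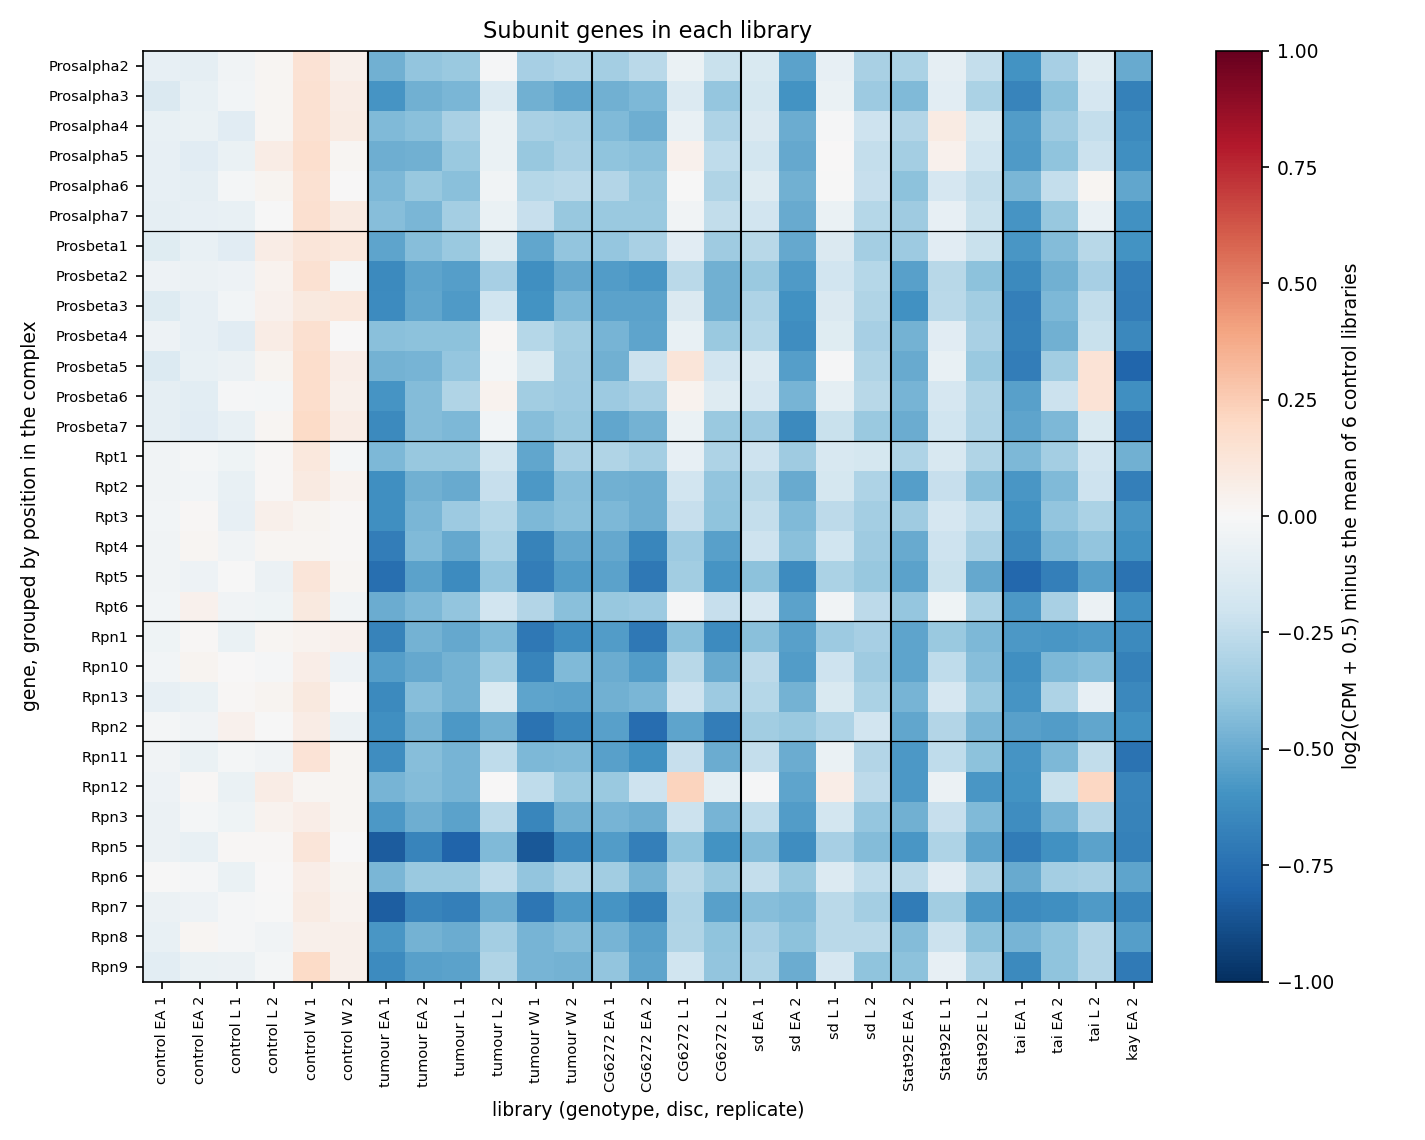
Log2(CPM + 0.5) of each standard subunit relative to the control mean in each of the 27 libraries, with genes in rows ordered by their place in the complex and libraries in columns ordered by genotype and disc. Tumour libraries lie below the control mean for all 31 genes except replicate 2 of leg discs, where 28 of 31 do.

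Over the 3 discs, 28.3% of all genes rose and 24.5% fell. Of the 4 paralogs that passed the filter, all at low levels, 1 rose and none fell. This was Rpt3R, which had no more than 9.41 CPM in any library. Rpt3R, a paralog of an ATPase of the base, rose by 0.53 on the log2 scale over the 3 discs (SE 0.141, adjusted p = 0.00511) and was the sole member to rise in that comparison. Its control levels were 7.80 and 9.02 CPM in eye-antennal, 3.67 and 5.68 in leg, and 4.43 and 3.99 in wing discs. Its tumour levels were 6.60 and 7.5 CPM in eye-antennal, 8.03 and 9.39 in leg, and 7.06 and 9.30 in wing discs. Tumour lay above control in leg and wing discs and below it in eye-antennal discs, with log2 changes of 0.90 (adjusted p = 0.0101), 0.96 (adjusted p = 0.00886) and -0.25 (adjusted p = 0.467). Each of the leg and wing calls was lost when some single libraries of that disc were left out, and the difference among discs did not pass the threshold (adjusted p = 0.0887).

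For Rpt6R, a paralog of another base ATPase, the direction depended on the disc. Control levels were 3.03 and 3.27 CPM in eye-antennal, 0.954 and 0.338 in leg, and 0.334 and 0.443 in wing discs. Tumour levels were 0.428 and 0.938 CPM in eye-antennal, 2.21 and 4.80 in leg, and 1.23 and 2.38 in wing discs. It was thus high in control eye-antennal discs and in tumour leg and wing discs, without overlap within any disc. With 2 libraries on each side such separation arises easily, and its share over all genes was not taken. The log2 change was -2.18 in eye-antennal (SE 0.601, adjusted p = 0.0133), 2.43 in leg (SE 0.605, adjusted p = 0.00555) and 2.19 in wing discs (SE 0.627, adjusted p = 0.0158), and the effect differed among discs (adjusted p = 0.0109). That difference was no longer called without replicate 1 of tumour eye-antennal discs, or in a fit of control and tumour libraries alone. Over the 3 discs it was 0.81 (SE 0.345, adjusted p = 0.0598). Control discs also differed among themselves in Rpt3R (adjusted p = 0.0203) and in Rpt6R (adjusted p = 0.00573). Calls for Rpt6R within a disc were lost without some single libraries of that disc.

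Rpt4R had 0.227 and 1.07 CPM in control eye-antennal and 0.343 and 0.793 CPM in tumour eye-antennal discs, and at most 0.135 CPM in the other control and tumour libraries, under the 0.185 to 0.265 CPM that 3 reads give in a library. Over discs it was not called (edgeR's quasi-likelihood test, adjusted p = 0.106), and no fold is given, as it would rest on libraries at 0. In eye-antennal discs the log2 change was -0.19 (SE 1.08, adjusted p = 0.915), while in leg and wing discs every tumour library was at 0 and no fold is given. Prosalpha1R had 0 to 2.56 CPM and no pattern by group, and no fold change is given. Markers of the testis germline, where such paralogs are known, had summed levels of 1.26 to 3.59 CPM over control libraries and of 2.74 to 6.26 CPM over tumour libraries. Among the 8 that were in the table, 3 passed the filter and 1 rose. Those that passed were bgcn, topi and bam, with 513, 420 and 385 reads over all libraries. The others had from 1 read (aly) and 10 reads (dj) up to 74 reads (Mst87F). The part of testis cells in the paralogs' levels was not tested.

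**Figure D4:**
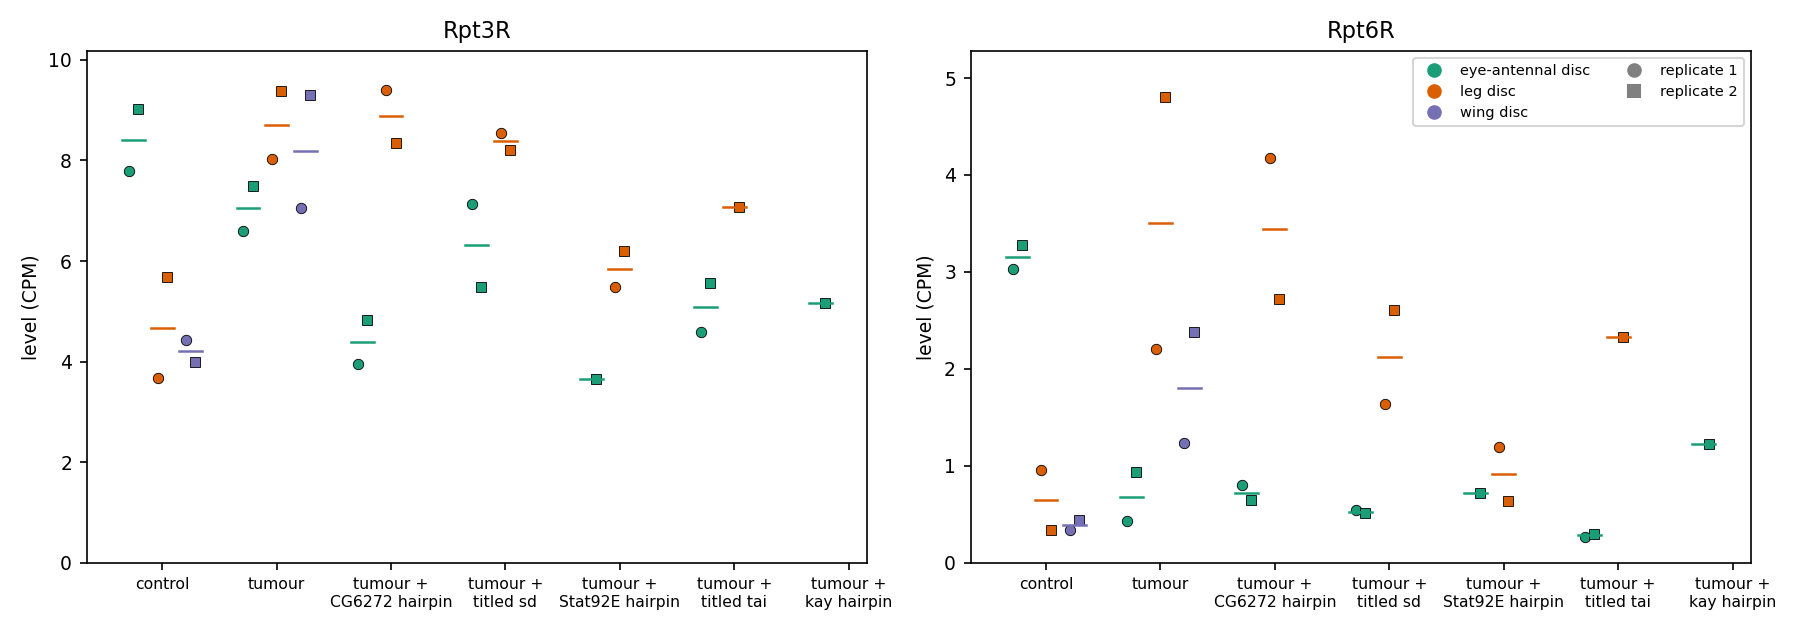
Levels of the paralogs Rpt3R and Rpt6R, in CPM, in each of the 27 libraries by genotype and disc; each point is a library. Among control and tumour libraries, Rpt6R is highest in control eye-antennal discs (3.03 and 3.27 CPM) and tumour leg discs (2.21 and 4.80 CPM), together with a tumour wing library (2.38 CPM), and no library exceeds 9.41 CPM for Rpt3R.

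The hairpin genotypes ask which of the tumour's changes depend on the targeted factor. They were compared with tumour discs of the same kind, eye-antennal and leg averaged and eye-antennal alone for kay, and all share these tumour libraries. The hairpin libraries also differed from tumour in the day of dissection, which cannot be told apart from genotype. No standard subunit changed under the CG6272 hairpin, which targets a C/EBP-type factor, in edgeR's test (0 of 31 at an unadjusted p under 0.05, and 0 called by DESeq2), against 14.2% of all genes called. The median log2 change was 0.05, with a range from -0.09 to 0.22. The largest changes were those of Rpn12 (0.22, 95% interval -0.09 to 0.54) and Prosbeta5 (0.15, SE 0.123), neither of which passed the test. Summed levels were 5721 and 5559 CPM in eye-antennal and 6913 and 5926 CPM in leg discs, within or above the tumour range for these discs and below every control library. Summed muscle markers reached 1182 CPM under this hairpin, against at most 183 CPM in tumour, with 4 of 5 higher. Summed fat body markers reached 2964 CPM, against at most 287 CPM in tumour, with 0 of 7 called. The part of these tissues was not tested.

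In the libraries titled sd, after the partner of the growth regulator Yorkie, 2 of 31 subunits were higher than in tumour. This was a smaller share than the 9.26% of all genes that were higher. Rpn7 had 161 and 160 CPM in eye-antennal and 179 and 171 CPM in leg discs, against 122 and 137, and 135 and 154 CPM, in tumour. Rpn2 had 424 and 417 CPM in eye-antennal and 435 and 472 CPM in leg discs, against 351 and 389, and 362 and 387 CPM, in tumour. For both genes all 4 libraries titled sd lay above all 4 tumour libraries, which held for 7.66% of genes tested, and below the control libraries. The log2 changes were 0.30 for Rpn7 (SE 0.0691, adjusted p = 0.00776) and 0.23 for Rpn2 (SE 0.0663, adjusted p = 0.0226). The median over the 31 subunits was 0.12, with a range from -0.04 to 0.30. An unadjusted p under 0.05 in edgeR's test was given by 6 of 31, against 3377 of all 9814 genes tested. Neither call held in leg discs alone, where the titles and genotype labels name the same hairpin (adjusted p = 0.0652 for Rpn7 and 0.0611 for Rpn2). The number of calls was 6 without replicate 2 of tumour leg discs, and 1 without replicate 1 of tumour eye-antennal, replicate 1 of tumour leg or replicate 2 of sd leg discs. Summed fat body markers reached 11842 CPM in a library titled sd, and their part in these changes was not tested.

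Under the Stat92E hairpin, against the transcription factor of the JAK/STAT pathway, no standard subunit changed in edgeR's test (0 of 31 at an unadjusted p under 0.05), against 13.3% of all genes, with a median of 0.07 and a range from -0.11 to 0.20. The largest changes were those of Rpn9 (0.20, SE 0.0930, adjusted p = 0.173) and Rpn5 (0.18). The paralog Rpt3R was lower, at 3.66 CPM in the eye-antennal and 5.48 and 6.19 CPM in the leg libraries, all below the 4 tumour libraries of these discs, which held for 10.6% of genes tested. Its log2 change was -0.76 (SE 0.199, adjusted p = 0.0208), against 6.78% of all genes lower, and the call was lost without replicate 2 of tumour eye-antennal, replicate 2 of tumour leg or replicate 1 of Stat92E leg discs (adjusted p = 0.0523, 0.0576 and 0.0704).

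In the libraries titled tai, after a coactivator of nuclear receptors, no member changed in edgeR's test (0 of 31 standard subunits at an unadjusted p under 0.05, and 0 called by DESeq2), against 2.72% of all genes. The median was 0.06, and the largest changes were those of Rpn12 (0.24, SE 0.162, adjusted p = 0.528) and Prosbeta6 (0.20, SE 0.103, adjusted p = 0.361). Summed muscle markers reached 2254 CPM in a library titled tai, against at most 183 CPM in tumour, with 0 of 5 called. Their part was not tested. The single kay library, against the Fos subunit of AP-1, was assumed to vary like the other groups. It gave no call among members in edgeR's test or in DESeq2, against 0.183% of all genes, with a median of -0.12 and a range from -0.33 to 0.09, and its sum of 5071 CPM was the lowest of the 27 libraries.

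Set against control discs of the same kind, the hairpin genotypes stayed low. In eye-antennal and leg discs every library lay below every control library for 18 of 31 subunits under the CG6272 hairpin, 21 in the libraries titled sd, 21 under the Stat92E hairpin and 26 in the libraries titled tai, where 15.5%, 12.4%, 15.6% and 15.8% of all genes did so. Groups of 3 libraries meet this condition more easily than groups of 4. No summed level of a hairpin library reached the lowest control library, the highest being 7019 CPM in a leg library titled sd.

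Factors that act on the proteasome were called in both directions in tumour discs. Of 10 regulators tested, 2 rose and 5 fell, with a median of -0.23, where 28.3% of all genes rose and 24.5% fell (53.7% fell among the genes at the level of the subunits). REG, the fly homolog of the ubiquitin-independent activator PA28 gamma, rose from 274 ± 37.5 to 388 ± 10.7 CPM (SD, n = 6 each), a log2 change of 0.51 (SE 0.0602, adjusted p = 4.64e-06). PI31, a binding partner of the core particle, rose from 81.7 ± 6.32 to 125 ± 38.9 CPM, a log2 change of 0.61 (SE 0.163, adjusted p = 0.00572). Pomp, the chaperone that assembles the core, fell from 128 ± 10.8 to 88.7 ± 11.4 CPM, a log2 change of -0.53 (SE 0.0755, adjusted p = 3.04e-05). CG8858, the fly homolog of the proteasome adaptor Ecm29, fell by 0.63 and Uch-L5, a deubiquitinase that binds the proteasome, by 0.58 on the log2 scale (adjusted p = 2.23e-06 and 3.43e-05). Both of these were higher than in tumour in the libraries titled sd, by 0.42 and 0.37. Of the 10 regulators, 2 were called higher and 1 lower there, with log2 changes from -0.91 to 0.42. Across all 9814 genes tested, 909 were higher and 1182 lower in that comparison.

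Of the 5 genes around cnc, 3 rose in tumour discs and none fell, with a median of 0.11, against 28.3% and 24.5% of all genes. The gene cnc itself rose from 194 ± 21 to 242 ± 28.1 CPM (SD, n = 6 each), a log2 change of 0.33 (SE 0.0838, adjusted p = 0.00418), and its partner maf-S by 0.24 (adjusted p = 0.00759). Keap1, which binds cnc in the cytosol, had a log2 change of -0.02 (adjusted p = 0.856). Of 4 cofactors of the p97 segregase, which extracts ubiquitin-tagged proteins, all 4 fell, against 24.5% of all genes, with log2 changes from -0.43 (Plap) to -0.18 (Ufd1). Of 7 genes of the COP9 signalosome, a complex whose subunits resemble the proteasome lid, 5 fell and none rose, led by CSN7 (-0.50) and CSN1b (-0.48), with a median of -0.26, where 24.5% of all genes fell, and 53.7% of those at the level of the subunits, with a median of -0.22. CSN3 and CSN5 did not pass, at 0.02 and 0.11.

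Genes of ubiquitin conjugation and of autophagy were called in shares near those of all genes, of which 28.3% rose and 24.5% fell. Of 13 genes for ubiquitin, its activation and its conjugation, 3 rose and 4 fell, with a median of -0.07. The conjugating enzyme Ubc6 rose by 0.63 and the ubiquitin gene Ubi-p5E by 0.41, while the activating enzyme Uba1 fell by 0.34 and the conjugating enzyme eff by 0.32 on the log2 scale. Of 7 genes of the CCT chaperonin, another large cytosolic complex, 1 rose (CCT6, 0.20) and none fell, with a median of 0.08. Of 15 autophagy genes, 5 rose and 3 fell, with a median of 0.06. The autophagy receptor ref(2)P, the fly homolog of p62, rose from 153 ± 9.09 to 338 ± 125 CPM, a log2 change of 1.14 (SE 0.198, adjusted p = 0.00021).

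**Figure D5:**
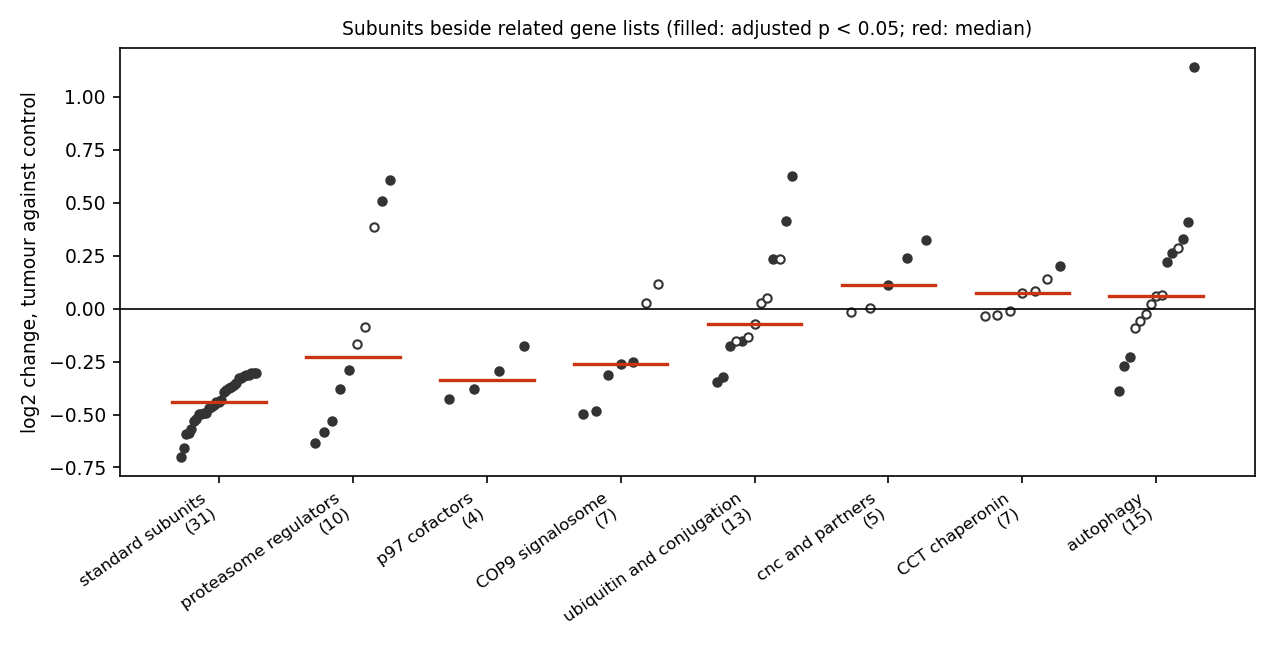
Log2 change of tumour against control, mean over 3 discs, for the standard subunits and 7 related gene lists; each point is a gene, filled where the adjusted p is under 0.05, and the bar is the median of the list. The standard subunits (median -0.44) all lie below 0, and the CCT chaperonin (median 0.08) and autophagy genes (median 0.06) lie around 0.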

How the data were processed

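Counts of reads per gene were deposited by the authors and used as they are. TopHat2, HTSeq and the build dm3 are named, per the submitters' processing notes. Not given in the sources used here are their versions, the annotation, and whether counting used strand. The 5 summary lines of HTSeq were left out of the library sizes. Symbols and lengths came from the Ensembl annotation of assembly BDGP6, a later build, so no coordinates are given. Counts per library came to between 11.7 M and 16 M. Log CPM of replicate pairs had correlations from 0.949 to 0.988.

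The filter kept 9814 of 15348 genes, those that reached 1 CPM in 2 or more libraries. Libraries were scaled by TMM, and 1 mean for each of 15 groups of genotype and disc was fitted to all 27 libraries with edgeR (12 residual degrees of freedom). Comparisons used the robust form of edgeR's quasi-likelihood F-test and Benjamini-Hochberg adjustment over all genes tested, at 0.05. Single-library groups take the spread of the other groups. The p-values of edgeR's test measure the spread between replicate libraries within groups, which in tumour groups also holds the step from day 9 to day 11. Discs of the same genotype and replicate number entered that fit as separate libraries, without a term for their dissection. Summed levels carry no test. Limits that 3 counts give in a library cover counting error only.

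The members, gene lists and comparisons were chosen with earlier results of these data known. Members described in full are the catalytic subunits, the member of each class with the largest change in tumour, the pair with the largest change for each hairpin with at least 3 libraries, and the paralogs that passed the filter. From each other list up to 4 called genes with the largest changes are named, and REG, Rpn1, Rpn10, Rpn11, Rpn13, Keap1, CSN3 and CSN5 were named after their values were seen. The fit was tested on simulated data. The title was followed for eye-antennal libraries titled sd. File names of the CG6272, Stat92E and kay libraries have another form, which cannot be told apart from genotype.

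Alternatives were DESeq2 size factors, upper-quartile scaling, library totals, no filter, a filter of 5 CPM, the test of DESeq2, limma-voom with and without the dissection as a random block, the replicate number as a block, the compared libraries alone, other readings of the sd libraries, hairpins of the same file name form, and each library left out. R 4.3.3, edgeR 4.0.16, limma 3.58.1 and DESeq2 1.42.0 were used.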

Additional observations from a re-analysis of the deposited data

Results flagged for a closer look

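Replicate 2 of tumour leg discs (day 11) stood apart from the other 5 tumour libraries. Its summed level of the standard subunits was 6743 CPM, against 5259 to 5764 CPM in the others, and it was the highest tumour library for 30 of 31 subunits. Among members given in full, Prosbeta1 at 182 CPM (others 138 to 154 CPM) and Prosalpha3 at 224 CPM (others 163 to 179 CPM) lay beyond the critical gap in that library. In control discs, Rpt4R was at 1.07 CPM in replicate 2 of eye-antennal discs and at 0 to 0.227 CPM in the others. Of 67 groups of values examined in this way, 4 were past the critical gap, and chance gives about 1 in 20.

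The effect of tumour on Rpt6R differed among the 3 discs (edgeR's quasi-likelihood test, adjusted p = 0.0109), with lower levels in eye-antennal and higher levels in leg and wing discs. The number of members called for this difference was 0 without replicate 1 of tumour eye-antennal discs and 0 with control and tumour libraries alone.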

How the results depend on the processing

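Main counts of members called were 32 for tumour against control over the discs, 27, 20 and 29 in eye-antennal, leg and wing discs, 1 for the effect among discs, 2 among control discs, 2 for sd, 1 for Stat92E and 0 for CG6272, tai and kay. With a filter of 5 CPM they were 0 among disc effects and 1 among control discs. With the dissection as a random block (replicate block in voom, correlation 0.442) they were 29 for tumour (1 higher, 28 lower), 2 for disc effects, 1 for sd and 0 for Stat92E. DESeq2's test gave 2 for disc effects and 4 for sd. The compared libraries alone gave 5 in leg and 17 in wing discs, where 25.7% and 15.5% of all genes were called. They gave 0 for disc effects and for control discs, 1 for sd and 0 for Stat92E. The count was 0 for sd in leg discs alone and 0 for Stat92E against CG6272.

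Leaving out single libraries gave 30 to 33 for tumour, 13 to 28, 7 to 20 and 21 to 31 in eye-antennal, leg and wing discs, 0 to 2 for disc effects, 1 to 2 for control discs, 0 for CG6272, 1 to 6 for sd, 0 to 1 for Stat92E, and 0 for tai and kay. The median log2 change of the standard subunits in tumour then lay between -0.49 and -0.40. Calls over all genes in eye-antennal or leg discs were also fewer when a control or tumour library of that disc was left out. The count for disc effects was 2 without replicate 2 of control leg and 0 without replicate 1 of tumour eye-antennal discs. That for control discs was 1 without either replicate of control eye-antennal or wing discs. Leaving out the lone tai leg, Stat92E eye-antennal or kay library gave no value for its comparison. The number of subunits whose tumour libraries all lay below control was 20, and 31 without replicate 2 of tumour leg discs, an alternative chosen after seeing the data.

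Members described in full, other than Prosalpha1R and Rpt4R, were followed over all settings. Followed were their change in tumour over the discs, each hairpin's pair with the largest change, and some comparisons of Rpt3R and Rpt6R. Of these values, 987 kept their side of the threshold, 43 lost a call and 4 gained one (all Rpt6R over the discs, without a single library each), and none reversed. The cause was not tested. Scaling by library totals moved the median of all genes in wing discs from 0.04 to 0.16 and the called genes there from 1597 higher and 1383 lower to 1977 and 763, while members called were 2 higher and 18 lower.

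The replicate number as a fixed replicate block gave 32 calls for tumour. Deviations of control and tumour libraries with the same number and disc correlated at -0.08 to 0.13 and over 0.1 in 1 of 3 discs. For tumour and hairpin libraries the correlations were -0.17 to 0.17, and over 0.1 in 1 of 6 pairs. These few values gave no sign that the numbers pair samples across genotypes, but cannot show that pairing was absent.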
